A study of Rattus norvegicus with 6 samples.

Results

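The genes followed here belong to the bone morphogenetic protein (BMP) pathway in rat chondrocytes and number 10: the ligand genes Bmp2 and Bmp4, the receptor genes Bmpr1a and Bmpr2, the transducer genes Smad1 and Smad5, the inhibitor gene Smad6, and the target genes Id1, Id2 and Id3. They were chosen by gene symbol as members of the pathway, with earlier results of these data known. All 10 were found among the 18420 genes of the deposited table. Primary chondrocytes of wild-type male Sprague-Dawley rats were compared by RNA-seq in a TNF-α group (TNF-α at 10 ng/mL, time labelled 6 h, n = 3) and a TNF-α+NFL group (the same TNF-α exposure, then NFL for 24 h, n = 3). NFL, or Nanofat lysate, is the cleared freeze–thaw lysate of the mixed cells of the stromal vascular fraction from rat abdominal fat. TNF-α is an inflammatory cytokine used here to give cultured cells features of osteoarthritis, and all 6 libraries came from cells that had received it. The libraries were labelled with 6 h and 30 h, so that NFL and the time of harvest cannot be told apart. Untreated cells were not analysed here. The cells came from knee and hip cartilage, were passaged before use, and the labels do not tie a library to an animal, so that p-values measure the spread between these libraries only.

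The direction of every difference rests on the group names in the deposited table. In the study's supplementary list of changed genes, whose column letters are read here as model and treated cells over untreated cells, the groups stood in the opposite order for Id1, Id3, Bmp4, Bmpr2 and the cartilage collagen gene Col2a1. In one block of the list, the heading and the column letters name different comparisons, and which source holds the intended order was not settled. The groups are therefore called the libraries labelled TNF-α and the libraries labelled TNF-α+NFL, and an exchange would turn the sign of each log2 fold change below without changing its size.

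BMPs are secreted ligands that bring together type I and type II serine/threonine kinase receptors, which then phosphorylate SMAD1, SMAD5 and SMAD9. These join SMAD4, enter the nucleus and switch on target genes, among them the ID genes, whose helix-loop-helix proteins lack a DNA-binding region and hold back other transcription factors of that kind. In cartilage the pathway is known for driving chondrocyte differentiation and matrix production, and SMAD6 is an inhibitor that the pathway induces against itself. RNA-seq counts transcripts and does not measure the phosphorylation of SMAD proteins.

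The ID genes are shown by the sequence before their transcription start. They are target genes of the pathway, and Id1 was the only member to pass the main test below. The 250 bases upstream of each start are from RefSeq on the build GRCr8, whereas the submitters' processing notes name Rnor_6.0 for the deposited values. Each is written 5′ to 3′ on the strand of the gene, with the letters CCAAT, or a TATA box spelled TATAAA, in capitals on either strand.
Id1 (chr3:161671314-161671563, + strand): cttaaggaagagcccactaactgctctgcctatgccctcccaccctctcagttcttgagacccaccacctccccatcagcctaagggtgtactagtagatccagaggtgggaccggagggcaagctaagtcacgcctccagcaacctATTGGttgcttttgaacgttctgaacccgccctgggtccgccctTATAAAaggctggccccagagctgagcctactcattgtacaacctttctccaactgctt
Id2 (chr6:47470996-47471245, - strand): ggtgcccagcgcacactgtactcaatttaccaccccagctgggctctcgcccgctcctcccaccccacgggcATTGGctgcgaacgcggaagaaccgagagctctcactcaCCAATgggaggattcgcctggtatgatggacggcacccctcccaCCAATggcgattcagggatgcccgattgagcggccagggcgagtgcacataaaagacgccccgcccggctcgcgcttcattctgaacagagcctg
Id3 (chr5:153656041-153656290, + strand): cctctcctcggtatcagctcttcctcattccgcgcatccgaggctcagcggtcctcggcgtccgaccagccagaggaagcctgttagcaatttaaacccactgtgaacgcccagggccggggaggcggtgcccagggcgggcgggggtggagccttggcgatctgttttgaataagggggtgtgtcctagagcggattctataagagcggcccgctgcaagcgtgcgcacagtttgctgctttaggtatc
In the Id1 sequence, TATAAA began 59 bases before the start and a reverse-complement CCAAT began 103 bases before it. The Id2 sequence held 3 copies of CCAAT on either strand and no TATAAA, and the Id3 sequence held neither. Of all 33469 RefSeq promoter windows of this length, 34.02% held CCAAT and 12.9% held TATAAA on either strand. GGCGCC, the core of a BMP response element, was found in 0 of the 8 members with a sequence and in 8.69% of all windows. GTCT or AGAC, the core that SMAD proteins bind, was found in 5 of the 8 and in 84.05% of all windows. These letters describe the window only, and response elements farther upstream were not searched.

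Each library held between 19344893 and 19725135 estimated counts. The counts were tested across 13250 genes with edgeR, of which 0.611% were called at an adjusted p under 0.05. Higher calls under the TNF-α+NFL label made up 0.408% of the tested genes and lower calls 0.204%. Across all genes the median log2 fold change was -0.0035. TNF-α replicate 1 stood apart within its group. Tested genes with a known transcript length were ranked by it and split into 4 bins of nearly equal size. In the bin of the shortest transcripts its median deviation from the mean of the 6 libraries was -0.039 on the log2 scale, against 0.048 and 0.073 in TNF-α replicates 2 and 3, and between -0.039 and -0.016 in the libraries labelled TNF-α+NFL. Between the groups, the median log2 fold change was -0.057 in the shortest bin, up to 1562 bases, and 0.033 in the longest, from 3807 bases. Id1, Id2 and Id3, at 894, 710 and 922 bases, were in the shortest bin, and Bmpr2, at 8913 bases, was in the longest. Values with this trend removed are given below for Id1, Id2, Id3, Bmp4, Bmpr2 and Smad5.

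Levels were compared between genes in TPM, which is scaled to transcript length. Id3 was the most abundant of the 10, at 613 ± 31.5 TPM (SD, n = 3) in the libraries labelled TNF-α and 562 ± 22.9 (SD, n = 3) in those labelled TNF-α+NFL. Bmp4 came next, at 238 ± 12.2 and 273 ± 5.37 TPM (SD, n = 3 each) in the same order. Id2 and Id1 followed, at 116 ± 6.85 and 114 ± 2.65 TPM (SD, n = 3 each) in the libraries labelled TNF-α, where their values overlapped. In the libraries labelled TNF-α+NFL they no longer overlapped, with Id2 at 117 ± 1.57 and Id1 at 96.4 ± 3.88 TPM (SD, n = 3 each). Below them stood Smad6, with a mean of 58.3 TPM over the 6 libraries, then Bmpr1a at 48.5, Bmpr2 at 37.9, Smad5 at 33.9 and Smad1 at 24.2. Bmp2 was the lowest, at 6.49 ± 0.521 TPM and 5.61 ± 1.05 TPM (SD, n = 3 each). Apart from Id2 against Id1 and Bmpr2 against Smad5, both in the libraries labelled TNF-α, neighbours in this order did not overlap within either group. Id3 ranked 271 and Bmp2 9660 among the 18041 genes with a mean TPM above 0.

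**Figure D1:**
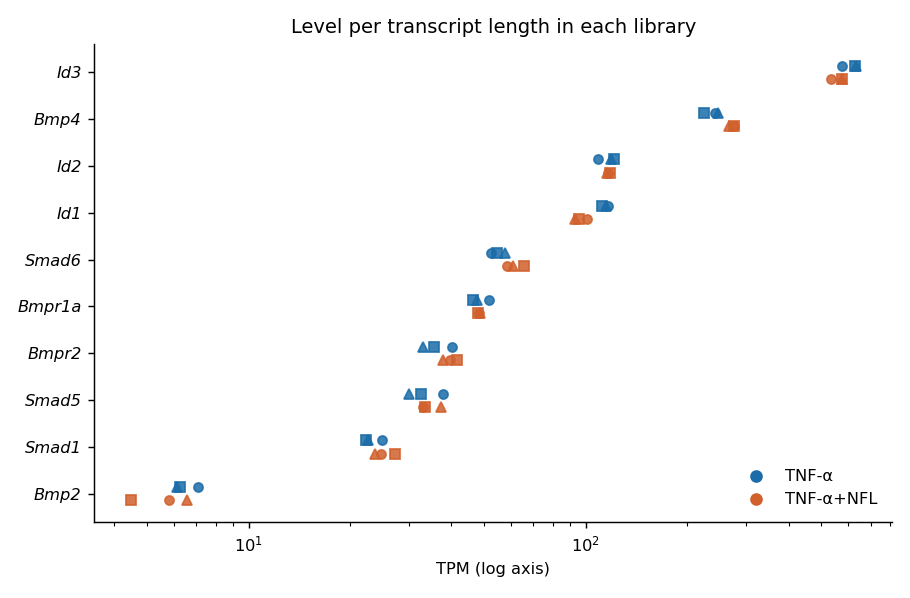
Level of each of the 10 BMP pathway genes in TPM (log axis), with 1 point per library, blue for the libraries labelled TNF-α, orange for those labelled TNF-α+NFL, and circles, squares and triangles for replicates 1, 2 and 3. The genes are ordered by their mean, from Id3 at 588 TPM to Bmp2 at 6.05 TPM, and Id1 lies below Id2 without overlap in the orange points only.

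Between the groups, 1 of the 10 genes passed an adjusted p of 0.05, which was Id1, and it was lower under the TNF-α+NFL label. By the unadjusted p, 4 of the 10 were under 0.05, namely Id1, Bmp4, Bmpr2 and Id3, where 11.1% of all tested genes were. The normalized counts (CPM, scaled to the TMM-adjusted library size) did not overlap between the groups for 5 genes, 3 higher and 2 lower, against 16.8% of all tested genes, with 8.66% higher and 8.17% lower. The median log2 fold change of the 10 was -0.023, with 4 higher and 6 lower. Since the genes were chosen with earlier results of these data known, these shares are descriptive and no test of the pathway. In bulk RNA, fewer cells of a type and less RNA per cell cannot be told apart.

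**Figure D2:**
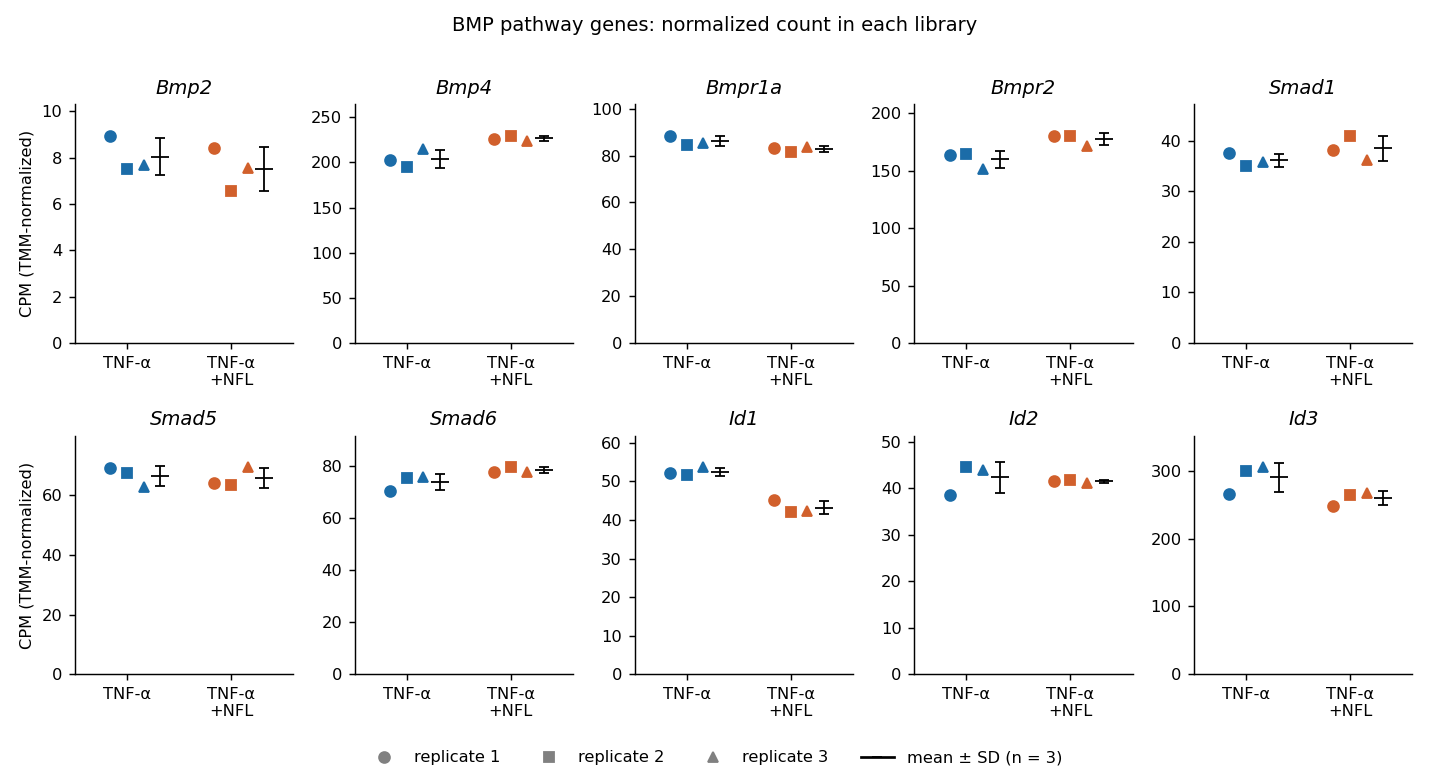
Normalized count (CPM, axes from 0) of each gene in each library, with circles, squares and triangles for replicates 1, 2 and 3 and black bars for the mean ± SD (n = 3). The 3 Id1 values labelled TNF-α+NFL, from 42.2 to 45.2, lie below the 3 labelled TNF-α, from 51.5 to 53.7, while Bmp4 and Bmpr2 show the opposite order, also without overlap.

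Id1 encodes the ID protein most used as a marker of BMP signaling. Its CPM was 52.1, 51.5 and 53.7 in replicates 1, 2 and 3 labelled TNF-α and 45.2, 42.2 and 42.2 in those labelled TNF-α+NFL. Every library of one group thus lay above every library of the other, with a gap wider than the spread within either. The log2 fold change was -0.28 (standard error, SE, 0.049, 95% interval -0.39 to -0.17, adjusted p = 0.023 by the quasi-likelihood test of edgeR). The exact permutation test gave p = 0.10 (two-sided), the smallest that 3 libraries against 3 allow. With the trend with transcript length removed, the log2 fold change was -0.22 and the adjusted p 0.024. The call rested on all but one of the libraries, since the adjusted p was 0.13 without TNF-α replicate 2, 0.085 without TNF-α replicate 3, and 0.076, 0.18 and 0.17 without TNF-α+NFL replicates 1, 2 and 3. On log2(FPKM + 1) and log2(FPKM + 0.1), tested with limma, the adjusted p was 0.095 and 0.092, which ended the call. With the replicate number as a block in edgeR it was 0.063, which also ended the call. The log2 fold change of Id1 in the 5 fits without a library lay between -0.31 and -0.26. The estimated count of Id1 was fractional in 6 of 6 libraries, so some of its reads were shared with other transcripts in the authors' estimate.

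Id3 encodes a related ID protein and had about 5 times the TPM of Id1, with a ratio of 5.36 ± 0.361 in the libraries labelled TNF-α and 5.84 ± 0.458 in those labelled TNF-α+NFL (SD, n = 3 each). Its CPM was 266, 299 and 305 in the libraries labelled TNF-α and 248, 264 and 267 in those labelled TNF-α+NFL. TNF-α replicate 1 lay among the libraries of the other group, and the groups overlapped through that library alone. The log2 fold change was -0.16 (SE 0.052, 95% interval -0.27 to -0.047, adjusted p = 0.25). Without TNF-α replicate 1 it was -0.22, with an adjusted p of 0.00046. With the length trend removed it was -0.098.

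Id2, the third target gene, had a CPM of 38.6, 44.6 and 43.99 in the libraries labelled TNF-α and 41.5, 41.8 and 41.2 in those labelled TNF-α+NFL. The second group lay inside the range of the first, in which replicate 1 was again the low one. On the log2 scale the fold change was -0.030 (SE 0.059, 95% interval -0.16 to 0.097, adjusted p = 0.91), and its sign turned with the length trend removed, at 0.050. Leaving out TNF-α replicate 1 gave -0.093 and leaving out TNF-α replicate 2 gave 0.011. As a share of the summed TPM of the 3 ID genes, Id2 was 13.8% ± 0.308 in the libraries labelled TNF-α and 15.1% ± 0.380 in those labelled TNF-α+NFL (SD, n = 3 each), with no overlap. The Id1 to Id2 ratio in TPM was 0.986 ± 0.079 and 0.825 ± 0.033 (SD, n = 3 each), also with no overlap. The exact permutation p was 0.10 (two-sided) for either measure, the smallest possible.

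Of the ligand genes, Bmp4 encodes the ligand more abundant here. Its CPM was 203, 195 and 215 in the libraries labelled TNF-α and 227, 230 and 224 in those labelled TNF-α+NFL. The groups did not overlap, and the libraries labelled TNF-α+NFL were the closer together, with a coefficient of variation of 1.26% against 4.98%. The log2 fold change was 0.15 (SE 0.042, 95% interval 0.062 to 0.25), and the adjusted p of 0.16 did not pass the threshold. It did pass with the length trend removed, at a log2 fold change of 0.18 and an adjusted p of 0.012. In that fit 1.87% of all tested genes were called. Without TNF-α replicate 1 Bmp4 passed too, at 0.15 and 0.021, where 6.94% were called. Its estimated count was fractional in 5 of 6 libraries.

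Bmp2 encodes the other ligand and was read from few counts, between 128 and 171 per library. Its CPM was 8.95, 7.49 and 7.69 in the libraries labelled TNF-α and 8.43, 6.56 and 7.54 in those labelled TNF-α+NFL, and the groups overlapped. Its log2 fold change was -0.099 (SE 0.12, adjusted p = 0.83), with a 95% interval from -0.35 to 0.15 that is the widest of the 10 genes. It was -0.015 when TNF-α replicate 1 was left out. Leaving out TNF-α+NFL replicate 1 gave -0.19, and leaving out replicate 2 of that group gave -0.0097. It was -0.19 and -0.25 on log2(FPKM + 1) and log2(FPKM + 0.1). A change of the size seen for Id1 would lie within the interval. The Bmp4 to Bmp2 ratio in TPM ran from 34.2 to 40.3 in the libraries labelled TNF-α and from 40.7 to 61.8 in those labelled TNF-α+NFL (exact permutation test, two-sided, p = 0.10), whereas the same ratio of the CPM values overlapped between the groups.

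Bmpr2 encodes a type II receptor of the BMP pathway. Its CPM was 163, 165 and 152 in the libraries labelled TNF-α and 181, 180.1 and 171 in those labelled TNF-α+NFL, with no overlap. In TPM the groups did overlap, since TNF-α replicate 1 was at 40.2 and the libraries labelled TNF-α+NFL lay between 37.6 and 41.5. The log2 fold change of the counts was 0.15 (SE 0.044, 95% interval 0.055 to 0.24), and the adjusted p of 0.19 did not pass the threshold. With the length trend removed it was 0.0998, with an adjusted p of 0.34, and without TNF-α replicate 1 it was 0.17, with an adjusted p of 0.014.

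Bmpr1a encodes a type I receptor. Its CPM was 88.6, 84.3 and 85.5 in the libraries labelled TNF-α and 83.4, 81.6 and 83.9 in those labelled TNF-α+NFL. The CPM values did not overlap, by a gap of under 1 CPM, and the TPM means were 48.6 ± 2.71 and 48.3 ± 0.421 (SD, n = 3 each). On the log2 scale the fold change was -0.055 (SE 0.042, 95% interval -0.14 to 0.035, adjusted p = 0.69). It was -0.034 when TNF-α replicate 1 was left out and -0.035 on log2(FPKM + 1).

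Smad1 and Smad5 encode the SMADs that BMP receptors phosphorylate. Smad1 had a CPM of 37.5, 35.03 and 35.9 in the libraries labelled TNF-α and 38.2, 41.03 and 36.3 in those labelled TNF-α+NFL. The groups overlapped, and the log2 fold change was 0.090 (SE 0.058, 95% interval -0.035 to 0.22, adjusted p = 0.62). Without TNF-α+NFL replicate 2 it was 0.042, and without TNF-α+NFL replicate 3 it was 0.13. Its estimated count was fractional in 6 of 6 libraries. Smad5 had a CPM of 69.1, 67.4 and 62.6 in the libraries labelled TNF-α and 64.2, 63.5 and 69.4 in those labelled TNF-α+NFL. The ranges nearly coincided, with a log2 fold change of -0.015 (SE 0.052, 95% interval -0.13 to 0.097, adjusted p = 0.96), and of -0.035 with the length trend removed. The sign turned in 6 of the 15 alternative fits, as at 0.015 when TNF-α replicate 1 was left out.

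Smad6, the inhibitory SMAD, had a CPM of 70.5, 75.5 and 75.7 in the libraries labelled TNF-α and 77.6, 79.5 and 77.8 in those labelled TNF-α+NFL. The groups did not overlap, with TNF-α replicate 1 the lowest. The log2 fold change was 0.084 (SE 0.045, 95% interval -0.013 to 0.18, adjusted p = 0.54). It was 0.051 when TNF-α replicate 1 was left out, and 0.13 and 0.14 on log2(FPKM + 1) and log2(FPKM + 0.1).

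**Figure D3:**
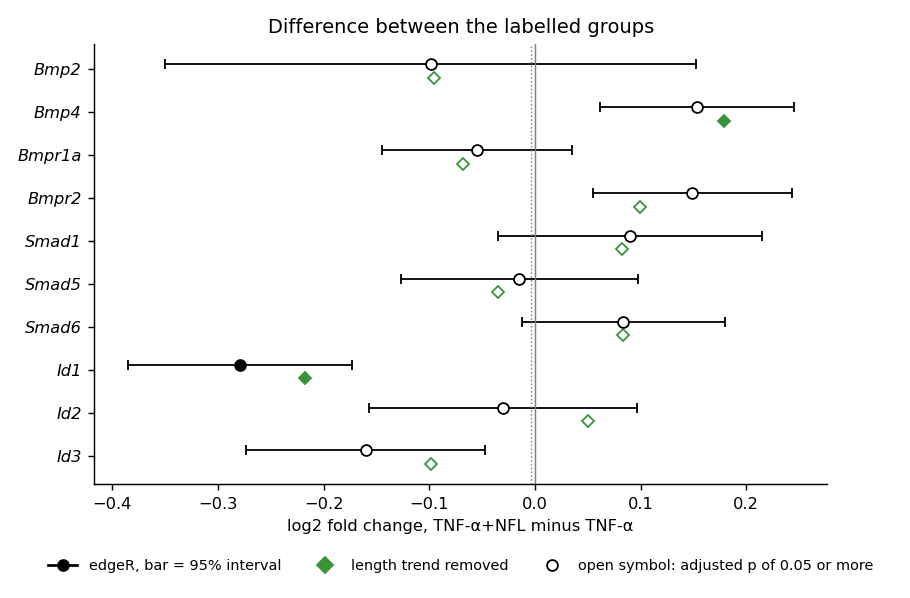
Log2 fold change of each gene between the labelled groups from edgeR (black circles, bars for the 95% interval) and with the trend with transcript length removed (green diamonds), where filled symbols passed an adjusted p of 0.05. Grey lines mark 0 and, dotted, the median of all tested genes at -0.0035. Id1 is the only filled circle, at -0.28, and with the trend removed Id1, at -0.22, and Bmp4, at 0.18, are filled.

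The calls depended on single libraries. With TNF-α replicate 1 left out, 4 of the 10 genes passed an adjusted p of 0.05: Id1 and Id3 were lower under the TNF-α+NFL label, and Bmp4 and Bmpr2 were higher. In that fit 6.94% of all tested genes were called. With any other single library left out, 0 of the 10 passed in edgeR. Its log2 fold change of Id1, Id3, Bmp4 and Bmpr2 kept its sign in each of the 15 alternative fits, which share libraries with each other.

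**Figure D4:**
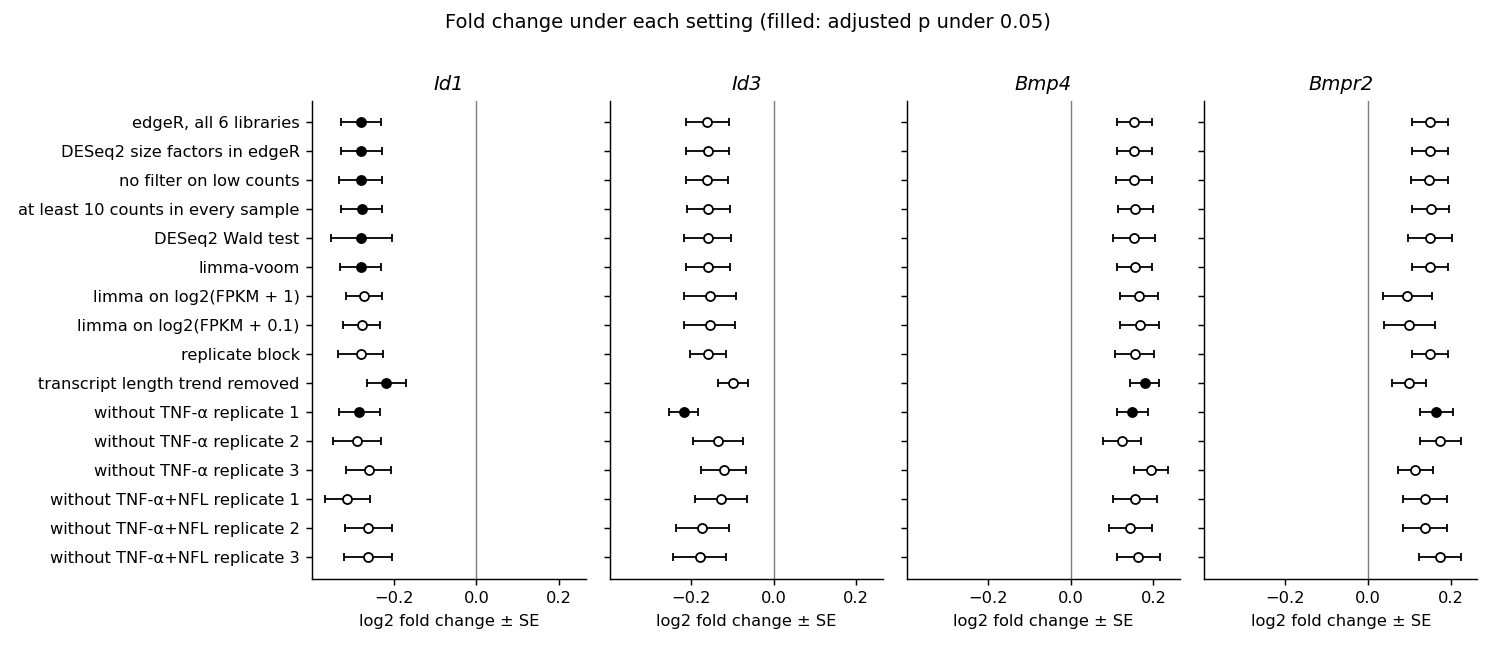
Log2 fold change ± standard error of Id1, Id3, Bmp4 and Bmpr2 under each setting, filled where the adjusted p was under 0.05. The values stay on one side of 0 throughout, from -0.31 to -0.22 for Id1, and Id3 and Bmpr2 are filled only without TNF-α replicate 1.

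The other genes of the pathway were taken by role from lists written from general knowledge, with earlier results of these data known. Counts of these genes against all tested genes are therefore descriptive. Of 77 symbols, 74 were in the table and 61 were tested, and 0 passed an adjusted p of 0.05 in edgeR, with 11 under an unadjusted p of 0.05, against 11.1% of all tested genes. DESeq2 called 1, Crim1, and limma-voom called 0. Their median log2 fold change was 0.040, with 44 higher and 17 lower, against -0.0035 for all tested genes. Over all genes in the bin of the longest transcripts the median was 0.033. In CPM, 12 of the listed genes did not overlap between the groups, 11 of them higher, against 16.8% of all tested genes, with 8.66% higher. These values are without removal of the length trend, whose part in them was not tested.

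Among the other ligands, 5 of 11 were tested and 0 passed. Bmp6 was the highest, between 18.5 and 24.8 TPM, and Bmp7 the lowest, listed between 0 and 0.040 TPM. Of the other receptors and co-receptors, 10 of 11 were tested and 0 passed, with 0 at an unadjusted p under 0.05. Eng, a co-receptor, led this list at 78.8 to 89.7 TPM, and Hjv was the lowest at 0.010 to 0.16 TPM. Of the other SMADs and intracellular regulators, all 16 were tested and 0 passed, with Fkbp1a, whose protein holds type I receptors inactive, the highest at 481 to 510 TPM. Smad9, the third SMAD phosphorylated by BMP receptors, was the lowest of that list at 3.50 to 10.7 TPM. Its estimated counts were 467, 205 and 430 in the libraries labelled TNF-α and 434, 448 and 416 in those labelled TNF-α+NFL, so 1 library held less than the others.

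Extracellular antagonists and modulators had the highest summed CPM of the lists, between 8890.1 and 9276, much of it from a few genes. Grem1, which encodes the BMP antagonist gremlin, was at 1718 to 1891 TPM, against 224 to 276 TPM for Bmp4, with a log2 fold change of 0.027 (SE 0.037, adjusted p = 0.86). Sostdc1 was listed at 0 in all 6 libraries. Of this list, 17 of 20 were tested and 0 passed, with 6 under an unadjusted p of 0.05, against 11.1% of all tested genes. Crim1, a transmembrane protein that binds BMPs, was at a CPM of 587 ± 28.3 and 658 ± 18.2 (SD, n = 3 each), a log2 fold change of 0.16 (SE 0.043, adjusted p = 0.13).

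The other BMP-responsive genes were 13, of which 10 were tested and 0 passed. By the unadjusted p, 2 were under 0.05, against 11.1% of all tested genes. All 10 had a log2 fold change above 0, with a median of 0.12, where 6385 of the 13250 tested genes did. For 8 of them the unadjusted p was above 0.05, and several were within 1 SE of 0, such as Atoh8 at 0.016. Id4, the remaining ID gene, was at a CPM of 18.8 ± 1.202 and 21.4 ± 1.39 (SD, n = 3 each), with a log2 fold change of 0.19 (SE 0.072, adjusted p = 0.32). Atoh8 was the highest of the list at 46.6 to 53.4 TPM and Sp7 the lowest at 0 to 0.090 TPM. Tcf3, Tcf4 and Tcf12 encode the partners that ID proteins bind, and they were at mean levels of 52.4, 41.5 and 43.9 TPM with log2 fold changes of 0.088, 0.040 and -0.027, none of which passed.

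**Figure D5:**
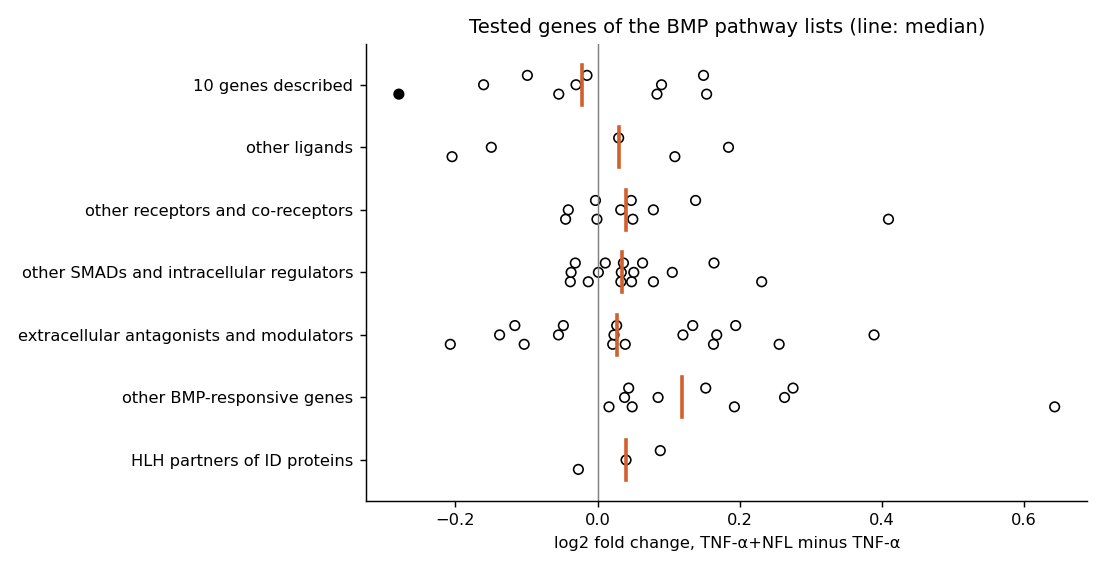
Log2 fold change of each tested gene in the BMP pathway lists, with filled points for an adjusted p under 0.05 and an orange line for the median of each list. Id1 is the one filled point, and the list of other BMP-responsive genes has its median at 0.12.

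The genes with a profile most like that of Id1 were found by the root mean square difference of the log2 CPM over the 6 libraries, each profile centred on its mean. They were Decr2, Ogdhl, Serpine2, Fars2 and Mnda, at 0.035 to 0.040 on the log2 scale. Of these, Serpine2 passed the test, with a log2 fold change of -0.26 (SE 0.034, adjusted p = 0.0056). Id3 was 871st in this order, at 0.11, and Id2 4085th, at 0.15.

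Markers of the labelled cell type and of other cell types were read. Among all tested genes, 11.1% were at an unadjusted p under 0.05. Of 13 chondrocyte markers, 11 were tested and 0 passed, with 2 at an unadjusted p under 0.05. Their summed CPM ran from 3498 to 4251 and from 3792 to 4072 in the groups. Mean levels were 1100 TPM for Prg4, 460 for Col11a1, 8.47 for Col2a1, 5.33 for Acan and 4.54 for Sox9, and Matn1 and Cnmd were at means of 0.0083 and 0.073 TPM. Under the TNF-α+NFL label, 8 of the 11 had a log2 fold change above 0 and 3 below it. Col2a1 was at 0.23 (SE 0.071, adjusted p = 0.22) and Col11a1 at 0.22 (SE 0.045, adjusted p = 0.052), and the 3 below 0 were Comp at -0.078, Hapln1 at -0.084 and Prg4 at -0.14. The 7 fibroblast markers were all tested and 0 passed. Lum, at a log2 fold change of -0.15, and Thy1, at 0.095, were the 2 at an unadjusted p under 0.05. Mean levels ran from 70.3 TPM for Dcn to 2565 for Thy1. Col1a1 and Col3a1, at means of 1265 and 412 TPM, stood above Col2a1, Acan and Sox9, as did the chondrocyte markers Prg4 and Col11a1. How far the cells kept the chondrocyte state was not tested. The endothelial and blood lists each summed to under 1 CPM in every library, and the adipocyte list to between 10.4 and 11.3 and between 10.8 and 12.9. Of 7 macrophage markers, 6 were in the table, 2 were tested and 0 passed, with 1 at an unadjusted p under 0.05. Their summed CPM was 77.8 to 82.6 in the libraries labelled TNF-α and 69.7 to 71.7 in those labelled TNF-α+NFL, nearly all of it from Cd14 and Cd68. Of the rarer markers, Csf1r, Lyz2 and Ptprc stood higher in TNF-α replicate 1, the library without which 4 members were called in place of 1. Csf1r had 40 counts there against 1 to 7 in the others, Lyz2 had 14.95 against 0, and Ptprc had 7 against 0 to 2, while Aif1 had 3 there and 3 in TNF-α replicate 2. Their part in the results was not tested, and without that library the log2 fold change of Id1 was -0.28.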

How the data were processed

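Estimated counts, FPKM and TPM values were deposited by the authors for each gene in each of the 6 libraries. The estimated counts need not be whole, the FPKM values are scaled to transcript length and mapped reads, and the TPM values, as deposited, sum to the same total in each library. The submitters' processing notes name HISAT2 2.0.4, Bowtie2 2.2.5, RSEM 1.2.12 and Rnor_6.0, without roles, and the annotation is not given in the sources used here. The study's methods give FPKM for finding changed genes and tie no test to them.

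The estimated counts, rounded to whole numbers, entered the robust quasi-likelihood model of edgeR 4.0.16 (R 4.3.3) after filterByExpr and TMM scaling. The script was first tested on simulated data. Tests were two-sided, with p-values adjusted by Benjamini-Hochberg across all 13250 genes that passed the filter. The standard error is the absolute log2 fold change over the square root of F. The biological coefficient of variation was 6.39%. Alternatives were DESeq2 1.42.0, limma 3.58.1 on counts and on log2(FPKM + 1) or log2(FPKM + 0.1), other filters and scalings, the replicate block, removal of each library's lowess trend with transcript length, and leaving out each library. Transcript lengths were derived from the counts and FPKM.

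Named genes are the 10 members, listed genes past an adjusted p of 0.05, the highest and lowest gene of each pathway list by mean TPM, and the 5 genes most like Id1. Crim1, Id4, Tcf12, the marker genes and the genes gained by leaving out a library, named outside this rule, were chosen after their values were seen. The members and lists were chosen with earlier results of these data known.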

Additional observations from a re-analysis of the deposited data

How the results depend on the processing

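Over the 10 genes and 15 alternatives, 130 of 150 fold changes kept their sign and side of the threshold, 8 lost the call, 4 gained one and 8 reversed. The 8 lost calls are all those of Id1, with adjusted p values from 0.0011 to 0.18 over its alternatives. Beside the 5 left-out libraries, the adjusted p was 0.095 on log2(FPKM + 1) and 0.092 on log2(FPKM + 0.1), both by limma, and 0.063 with the replicate block. The number of the 10 genes called was then 0 in each of these 3 settings, and 0 at an adjusted p under 0.01. It was 2 with the length trend removed, where 1.87% of all tested genes were called. With 1 library left out it ran from 0 to 4, the most without TNF-α replicate 1, where 6.94% of all tested genes were called. The reversed genes were Smad5, at 0.021 with log2(FPKM + 1), 0.022 with log2(FPKM + 0.1), 0.015 without TNF-α replicate 1, 8.8e-06 without TNF-α replicate 2, and 0.0032 and 0.0096 without TNF-α+NFL replicates 1 and 2, and Id2, at 0.050 with the length trend removed and 0.011 without TNF-α replicate 2. With 1 library left out, the log2 fold change of Smad5 ran from -0.055 to 0.015 and that of Id2 from -0.093 to 0.011. Neither was called in any setting.

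Of the other pathway genes, 1 was called with DESeq2 and 1 with the length trend removed, Crim1 both times. With 1 library left out the number ran from 0 to 7, with 7 without TNF-α replicate 1: Crim1, Skil, Fstl1, Fstl3, Tll1 and Hes1 higher and Htra1 lower. Over all genes, 81 were called, against 132 with no filter, 148 with DESeq2, 6 and 13 on FPKM with pseudocounts of 1 and 0.1, 34 with the replicate block, 235 with the length trend removed, 23 at an adjusted p under 0.01, and 5 to 930 with 1 library left out, the fewest without TNF-α+NFL replicate 1 and the most without TNF-α replicate 1. Without TNF-α replicate 1, 460 of the calls were higher and 470 lower, against 54 and 27 in the fit of all 6 libraries. The cause of these differences was not tested. The labels do not say whether the replicate numbers pair the libraries. The deviations of same-numbered libraries correlated at 0.053, -0.018 and 0.11. These deviations include counting noise, so low correlations cannot exclude a shared animal or culture. Depth limits Bmp2 most, with a counting error of 8.11% per library, against 3.27% for Id1 and 1.36% for Id3.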
